A study of Linum usitatissimum with 8 samples.

Results

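In developing flax seed (Linum usitatissimum, cultivar Heiya No.14), a set of 103 genes was high at the stage labelled DAP10 and low at DAP5, DAP20 and DAP30. Each of the 4 stages had 2 RNA-seq libraries made from seed RNA, and the groups differed in stage alone. The labels name no treatment and do not spell out the stage names. They do not say whether replicates are separate plants, or how many seeds went into a library, so the p-values cover the spread among these libraries alone, and that spread may be technical.

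The genes were chosen on CPM, the count of a gene divided by the total of its library and scaled to the usual round number of reads. A gene entered when both DAP10 libraries had at least 20 CPM and the lower of them was at least 4 times the highest of the 6 other libraries. Of 38306 annotated IDs, 8908 met the first condition and 103 of those also met the second. Every library thus took part in the choice, so the height of the peak is described here and not tested. The table pairs no ID with a gene name, so the genes are given by ID, no role is assigned to them, and the seed label could not be checked against marker genes. In whole seeds, more transcript per cell and more cells of a type that holds it cannot be told apart.

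A flax seed holds an embryo, an endosperm and a seed coat, which develop together but on different schedules. In oilseeds in general, early development is a phase of cell division and tissue patterning, and a later filling phase lays down oil and storage protein. Between them the seed coat differentiates, and in flax its outer cell layer produces mucilage. A gene seen at only 1 sampled stage therefore need not belong to the same tissue as another gene with the same time course.

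The 103 genes took 4.32% and 3.78% of all counts in DAP10 replicates 1 and 2. Their share was 0.151% and 0.240% in the DAP5 libraries, 0.277% and 0.142% in the DAP20 libraries, and 0.105% and 0.104% in the DAP30 libraries. The share at DAP10 rested on few genes, since the 5 most abundant held 47.6% and 44.1% of it. The median gene stood at 76.1 and 70.3 CPM in the DAP10 libraries, against 3.85 and 7.37 at DAP5, 2.43 and 1.13 at DAP20, and 1.13 and 0.965 at DAP30. Library totals ran from 12951493 counts in DAP10 replicate 2 to 27691831 in DAP5 replicate 2, so the peak was measured in the 2 shallowest libraries. In the deeper libraries 3 counts equal 0.108 to 0.181 CPM.

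**Figure D1:**
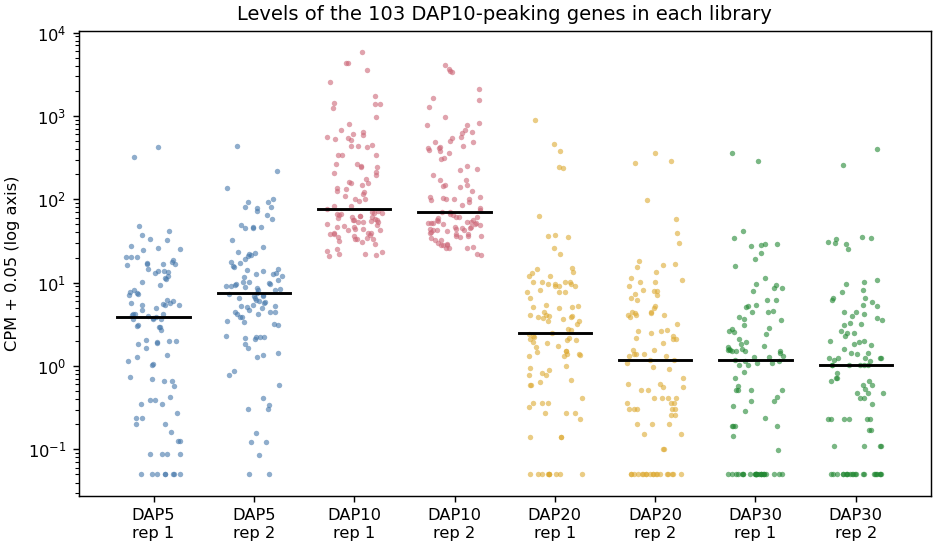
CPM plus 0.05 (log axis) of each of the 103 genes in the 8 libraries, 1 point a gene, with the median of each library as a bar. The DAP10 points begin at 20 CPM because the genes were chosen so. At the other stages the median lies between 0.965 and 7.37 CPM, and the row of points at the bottom is genes without a count.

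Mean levels at DAP10 ran from 21.5 to 4717 CPM, with a median of 80.5. There were 10 genes at 1000 CPM or more, 47 at 100 or more and 32 below 50. The most abundant, Lus10021866.g.BGIv1.0, had 5790 and 3643 CPM at DAP10. It started from 0.679 and 1.59 CPM at DAP5 and ended at 27.2 and 30.1 at DAP30, after 63.3 and 57.6 at DAP20. Ranked by mean DAP10 level over every row of the table, it was number 10, and 12 of the 103 genes were among the first 100. The next, Lus10010943.g.BGIv1.0, had 4309 and 4078 CPM at DAP10, and kept more than the first gene at the other stages. Its levels were 47.4 and 137 CPM at DAP5, 883 and 363 at DAP20, and 284 and 257 at DAP30.

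Levels can be compared between genes only per length, and on that scale the order changed. Per kilobase of the deposited gene length, Lus10031387.g.BGIv1.0 came first with a mean of 2409 CPM per kilobase at DAP10 and a length of 703 bases. Its CPM were 1728 and 1659 at DAP10, 33.5 and 94.0 at DAP5, 378 and 273 at DAP20, and 359 and 397 at DAP30. Lus10011817.g.BGIv1.0 came second with a mean of 2218 CPM per kilobase at DAP10 and a length of 1733 bases. It had 4310 and 3379 CPM at DAP10, and its DAP20 libraries lay far apart, at 466 and 96.8. It had 0.113 and 2.06 CPM at DAP5, and 34.4 and 33.6 at DAP30.

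By median the genes were of ordinary length for the table and shorter than the annotated IDs that reached 20 CPM in both DAP10 libraries. The lengths of the 103 ran from 533 to 5036 bases with a median of 1602, against 1610 over all annotated IDs. Over the 8908 that passed this minimum, which were not matched to the 103 in level, the median was 2336. The 2 longest of the 103 were Lus10025108.g.BGIv1.0 and Lus10009867.g.BGIv1.0, with 5036 and 4483 bases. Lus10025108.g.BGIv1.0 had 448 and 490 CPM at DAP10, 20.3 and 80.0 at DAP5, 1.44 and 1.49 at DAP20, and 1.23 and 0.965 at DAP30. Lus10009867.g.BGIv1.0 had 341 and 432 CPM at DAP10, and 1.96 and 79.9 at DAP5. Its remaining 4 libraries were at 0.256 CPM or below.

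The height of the peak over the other stages varied widely. The ratio of the lower DAP10 library to the highest other library had a median of 6.50. It was below 5 for 29 genes, at least 10 for 33 and at least 100 for 6. The largest belonged to Lus10032460.g.BGIv1.0, with 241 and 250 CPM at DAP10, 0.151 and 0.0361 at DAP5, and no count in any DAP20 or DAP30 library. Summed over the libraries of a stage it had 6885 counts at DAP10 and 5 at DAP5, which gives a depth-corrected ratio of 2655 (95% interval of 1137 to 8181, exact binomial). Its DAP10 mean was at least 3414-fold above DAP20 and at least 3090-fold above DAP30, where the bound is set by 3 counts summed over both libraries. Lus10009648.g.BGIv1.0 came second, with 39.5 and 42.9 CPM at DAP10 and 2 counts in all other libraries together, both in DAP5 replicate 2. Its ratio of DAP10 to DAP5 was 1114, with an interval of 308 to 9207. Intervals and bounds cover counting error only. Both genes were picked for the largest ratio of DAP10 to the other libraries, so the intervals are descriptive and do not allow for that choice.

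At the other end, Lus10034690.g.BGIv1.0 and Lus10020045.g.BGIv1.0 were the last genes inside the limit, with ratios of 4.01 and 4.04. Lus10034690.g.BGIv1.0 had 28.6 and 44.8 CPM at DAP10 against 5.32 and 7.15 at DAP5. Lus10020045.g.BGIv1.0 had 1389 and 1295 against 320 and 217 at DAP5. The first genes outside were Lus10018245.g.BGIv1.0 with a ratio of 3.99, at 32.3 and 32.1 CPM at DAP10 and 6.08 and 8.05 at DAP5, and Lus10042707.g.BGIv1.0 with 3.97, at 480 and 447 at DAP10 and 64.5 and 113 at DAP5. All 4 had their highest other library at DAP5. A further 47 annotated genes had a ratio from 3 up to 4, so the limit does not fall in a gap between 2 kinds of gene.

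**Figure D2:**
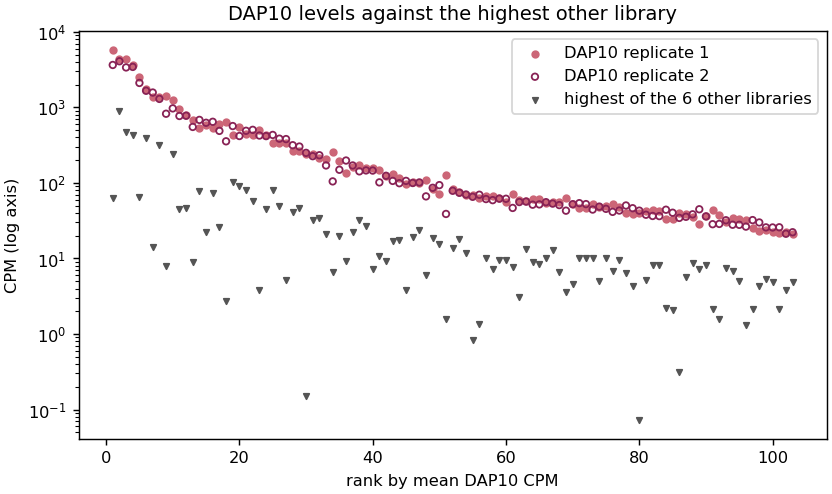
CPM (log axis) of the 103 genes ranked by mean DAP10 level, with filled circles for DAP10 replicate 1, open circles for replicate 2 and triangles for the highest of the 6 other libraries. The levels fall from 4717 CPM for the first gene to 21.5 for the last, and the triangles lie at least 4-fold below the lower circle by the choice of genes. Triangles scatter widely at every rank.

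The decline on either side of DAP10 was uneven. The mean at DAP10 was a median of 11.4-fold above that at DAP5, 44.6-fold above DAP20 and 126-fold above DAP30, with genes without a count set to their bound. Of the 103 genes, 2 had no count at DAP5, 7 had none at DAP20 and 20 had none at DAP30. A mean below 1 CPM was found for 15 genes at DAP5, for 35 at DAP20 and for 51 at DAP30. The highest of the other stages was DAP5 for 72 genes, DAP20 for 20 and DAP30 for 11. None was without a count at all 3 other stages.

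**Figure D3:**
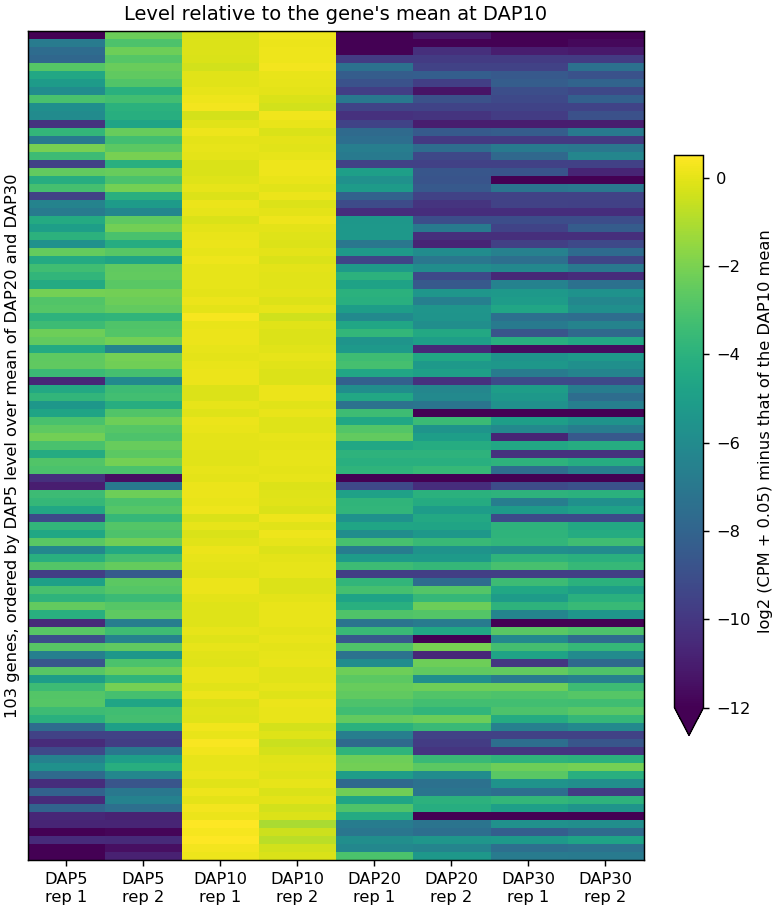
Each row is 1 of the 103 genes and each column a library, and colour gives log2 of CPM plus 0.05 minus that of the gene's DAP10 mean, with the darkest colour for -12 and below. Rows are ordered from genes with more at DAP5 than later (top) to genes with more at DAP20 and DAP30 (bottom). The top rows keep some signal at DAP5 and little later, and the bottom rows do the opposite.

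The 2 libraries of a stage did not hold these genes at equal levels, and at DAP5 most of the genes were higher in replicate 2. At DAP5, 60 of the 73 genes with at least 20 counts in both libraries (82.2%) were higher in replicate 2, with a median log2 ratio of replicate 2 to replicate 1 of 0.837. Over all annotated genes counted the same way, 57.1% were higher in replicate 2 and the median log2 ratio was 0.0597. DAP5 replicate 2 was also the highest library outside DAP10 for 64 of the 103 genes, and replicate 1 for 11. With TMM scaling, a correction for the makeup of each library, 59 of the 73 were higher in replicate 2, against 49.1% of all annotated genes. Without that scaling, 19 of 52 genes at DAP20 (36.5%) were higher in replicate 2, against 49.3% of all annotated genes. The median log2 ratio of the 52 was -0.30. By this count DAP20 was close to DAP10, where 39.8% were higher in replicate 2, against 51.0%. At DAP30 it was 40.4% against 37.1%.

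Gaps of over 4 times were common in the set. Among genes with at least 20 counts in either DAP5 library, replicate 2 was over 4 times replicate 1 for 20 of 92 (21.7%) and the opposite held for 1, while over all annotated genes the shares were 0.922% and 0.823%. At DAP20 the gap lay with replicate 1, which was over 4 times replicate 2 for 24 of 75 genes (32.0%), with the opposite for 1, against 3.61% and 1.33% of all annotated genes. At DAP30 it was 2 of 58 for replicate 1 and none for replicate 2. At DAP10 no gene had such a gap, which follows in part from the choice of genes by the lower library. The members were capped outside DAP10, and the annotated genes set beside them were not matched in level. The part of low counts in these gaps was not tested. The members are not independent of each other, so these counts carry no p-value. The labels give both replicates of a stage the same stage name and no finer time, so whether they were sampled at the same age is not known here, and a stage mean averages libraries that differ in this way. The part of these gaps in the comparisons of stages was not tested beyond leaving out each library.

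Lus10005706.g.BGIv1.0 shows the gap at DAP5 and Lus10040411.g.BGIv1.0 that at DAP20, both picked after their values were seen. Lus10005706.g.BGIv1.0 had no count in DAP5 replicate 1 and 101 CPM in replicate 2, then 427 and 566 at DAP10, and at most 0.154 in the 4 later libraries. Lus10040411.g.BGIv1.0 had 4.08 and 8.74 CPM at DAP5, 1258 and 970 at DAP10, 239 in DAP20 replicate 1 and 7.95 in replicate 2, and 6.22 and 1.21 at DAP30. In each case 1 library outside DAP10 held a substantial level and its replicate did not.

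**Figure D4:**
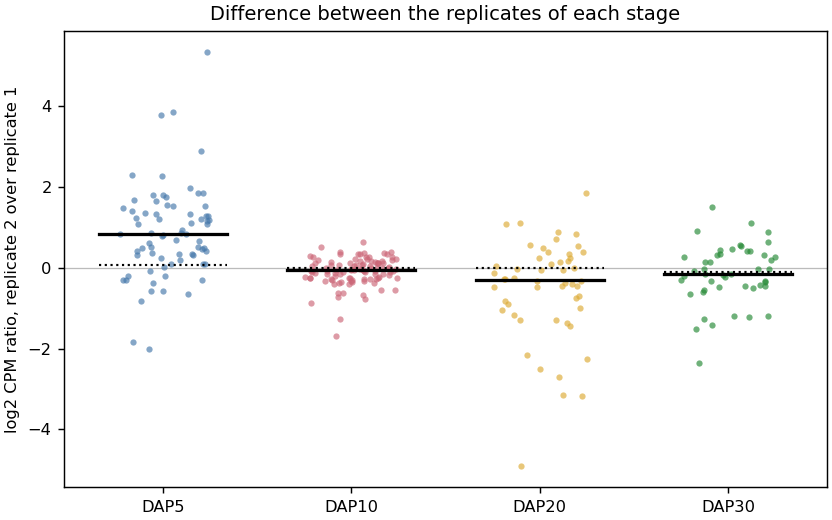
Log2 ratio of CPM in replicate 2 to replicate 1 for each of the genes with at least 20 counts in both libraries of a stage, 103 at DAP10, 73 at DAP5, 52 at DAP20 and 47 at DAP30. Solid bars are medians of these genes and dotted bars those of all annotated genes with as many counts. The DAP5 points lie mostly above 0, with a median of 0.837, and the long tail at DAP20 points down.

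At DAP10 itself the replicates were close. The higher library was a median of 1.15 times the lower, against 1.08 over annotated genes with at least 20 CPM in both, and 94 of the 103 genes were within 1.5 times. Replicate 1 was the higher for 62 genes and replicate 2 for 41 (39.8%). Of all annotated genes with at least 20 counts in both libraries 51.0% were higher in replicate 2.

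The choice of genes capped the levels outside DAP10 but set no order among the other stages, so that order was tested. All 8 libraries entered 1 edgeR quasi-likelihood fit over 28749 genes with TMM scaling, and genes with a false discovery rate (FDR) under 0.05 count as called. All 103 genes passed the filter on low counts through their DAP10 counts, so the members counted as not called include genes with little or nothing to test. In fits restricted to the pair of stages, 91, 90 and 71 of them passed the filter for DAP5 to DAP20, DAP5 to DAP30 and DAP20 to DAP30. TMM makes the DAP5 libraries effectively larger than their totals and the later ones smaller. With library totals in its place the median of all genes (log2 fold change) moves from -0.05 to -0.82 for DAP5 to DAP20, from -0.24 to -1.11 for DAP5 to DAP30 and from -0.04 to -0.14 for DAP20 to DAP30. The CPM given here use library totals, and the log2 fold changes use TMM.

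Between DAP5 and DAP30 the genes were more often lower than higher after the peak. Of the 103, 52 (50.5%) fell, 16 (15.5%) rose and 35 were not called, while of all genes tested 70.2% were called, 38.9% lower and 31.3% higher. The median log2 fold change was -2.23, or -1.76 with genes without a count set to their bound, against -0.24 over all genes. The medians of the 52 genes that fell were 10.99 CPM at DAP5 and 0.418 at DAP30, and those of the 16 that rose were 0.895 and 6.59. Both kinds included very abundant genes, since 5 of the 10 genes with at least 1000 CPM at DAP10 rose, 4 fell and 1 was not called. With library totals in place of TMM 63 fell and 13 rose, while of all genes 55.4% fell and 17.3% rose in that fit. With only these stages in the fit 49 fell and 16 rose of the 90 that passed the filter. Of all genes in that fit 41.2% fell and 31.2% rose. Without DAP5 replicate 2 the median log2 fold change was -1.01, with 43 genes falling and 22 rising, against 33.2% and 26.5% of all genes.

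Abundant genes with opposite residues are Lus10021866.g.BGIv1.0 and Lus10000692.g.BGIv1.0. Lus10021866.g.BGIv1.0, at 0.679 and 1.59 CPM at DAP5, rose to DAP30 by 5.53 ± 0.45 on the log2 scale (SE; FDR = 3.57e-05 by edgeR). Lus10000692.g.BGIv1.0, with 3597 and 3434 CPM at DAP10, had 424 and 432 at DAP5 and 19.2 and 35.4 at DAP30. It fell by 3.09 ± 0.34 on the log2 scale (SE, edgeR FDR = 0.000142). Both were picked after their values were seen. In neither do the libraries of DAP5 and DAP30 overlap.

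Among the rises from DAP5 to DAP30, the fitted fold change was largest for a pair of genes almost silent at DAP5. In Lus10024931.g.BGIv1.0 the DAP5 libraries held no count, the DAP10 libraries 126 and 38.8 CPM, the DAP20 libraries 0.719 and 0.513, and the DAP30 libraries 1.56 and 1.39. The rise was at least 48.9-fold on TMM-scaled counts (edgeR FDR = 0.00163), a log2 bound of 5.61. That bound lies below the log2 fold changes of Lus10011817.g.BGIv1.0 (5.84) and Lus10010341.g.BGIv1.0 (5.73) for the same stages. Lus10022894.g.BGIv1.0 went from 4 counts at DAP5 to 205 at DAP30, which is a log2 difference of 6.95 ± 0.69 (SE; FDR = 8.49e-05 by edgeR). The DAP10 libraries had 254 and 105 CPM, the DAP5 libraries 0.0755 and 0.0722, the DAP20 libraries 3.10 and 4.05, and the DAP30 libraries 4.53 and 6.58. These 2 genes also had the widest gaps between the DAP10 libraries, with replicate 1 at 3.23 and 2.42 times replicate 2, and no other member had a gap of over 2 times.

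Among the falls from DAP5 to DAP30, the fitted fold change was largest for a pair of genes without a count at DAP30, where it depends on the prior count and only a bound can be given. By these bounds they do not outrank Lus10025231.g.BGIv1.0, which went from 2157 to 2 counts, a log2 fold change of -8.50 (edgeR FDR = 0.00509). Lus10039078.g.BGIv1.0 peaked at 433 and 504 CPM, from 25.2 and 57.5 at DAP5, had 9.13 and 1.03 at DAP20, and had no count at DAP30. The fall was at least 287-fold (edgeR FDR = 0.00162). Lus10018889.g.BGIv1.0 peaked at 335 and 385 CPM, from 13.6 and 49.1 at DAP5, and dropped to no count at DAP30. That fall was at least 219-fold (edgeR FDR = 0.0331). At DAP20 it had 34.9 CPM in replicate 1 and no count in replicate 2. Its FDR ran from 5.37e-12 to 0.117 over 16 alternatives and was not below 0.05 in 6 of them: limma-voom (0.0715) and the fits without DAP5 replicate 2 (0.0871), DAP10 replicate 1 (0.0544), DAP10 replicate 2 (0.0545), DAP30 replicate 1 (0.117) or DAP30 replicate 2 (0.101).

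**Figure D5:**
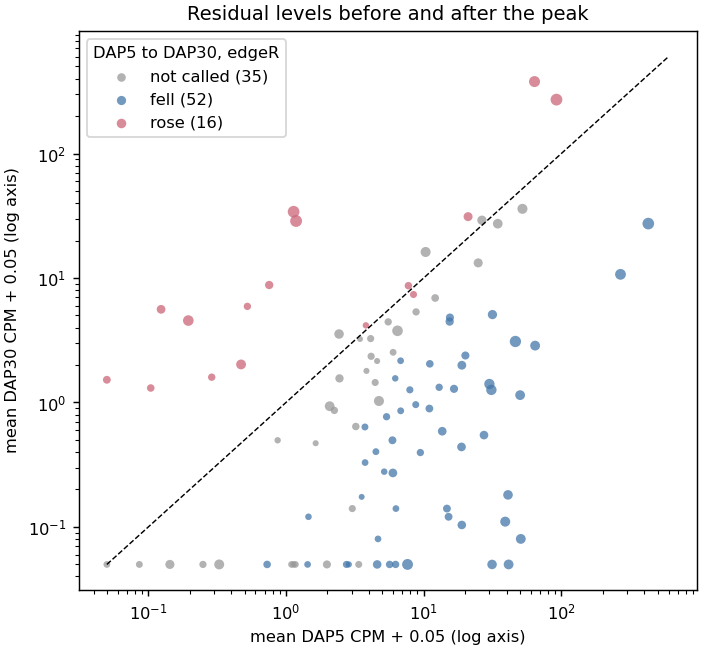
Mean CPM plus 0.05 at DAP5 (x, log axis) and DAP30 (y, log axis) of the 103 genes, with the dashed line of equal level, colour for the edgeR call and larger points for higher DAP10 means. The 52 genes that fell lie below the line and the 16 that rose lie above or close to it, as CPM use library totals and the test TMM. Points of both colours include large ones.

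From DAP5 to DAP20 these genes were called in both directions. In all 32 genes (31.1%) fell, 22 (21.4%) rose and 49 were not called, while of all genes tested 60.6% were called, 31.6% lower and 29.0% higher. The median log2 fold change was -0.78, or -0.76 with genes at their bound, against -0.05 over all genes. How these shares compared with those of all genes depended on the setting. With library totals 53 fell and 14 rose, against 49.95% and 14.4% of all genes. With only these 2 stages in the fit 20 fell and 10 rose of the 91 that passed the filter, against 29.3% and 23.7% of all genes. Without DAP5 replicate 2, 25 fell and 24 rose, against 25.4% and 22.8% of all genes. Without DAP5 replicate 1 the median log2 fold change was -1.14. The median moved to -0.22 without DAP5 replicate 2 and to -1.84 without DAP20 replicate 1, so its size rests on those 2 libraries.

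Lus10011817.g.BGIv1.0 rose in this pair of stages from 60 to 12241 counts, a log2 difference of 8.78 ± 1.27 (SE; FDR = 0.00078 by edgeR). It was called in each of 16 alternatives, with an FDR of at most 0.0097, but leaving out DAP5 replicate 2 moved its log2 difference to 11.89 and leaving out DAP20 replicate 1 moved it to 7.25. By fitted fold change Lus10024931.g.BGIv1.0 came next, but its log2 bound of 4.27 lies below the log2 fold change of Lus10021866.g.BGIv1.0 (6.50). Lus10024931.g.BGIv1.0, which went from 0 to 26 counts, was at least 19.2-fold higher at DAP20 (edgeR FDR = 0.00878). It was not called by limma-voom (0.0558) or without DAP20 replicate 1 (0.0561).

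Among the falls from DAP5 to DAP20, the genes named by the fitted fold change had DAP5 libraries that lay far apart. Lus10025231.g.BGIv1.0 peaked at 526 and 645 CPM, from 5.28 and 72.8 at DAP5, and had no count at DAP20, at least 324-fold lower (edgeR FDR = 0.00476). Lus10009867.g.BGIv1.0 fell from 2264 to 5 counts, by 7.54 ± 1.92 on the log2 scale (SE, edgeR FDR = 0.011). Without DAP5 replicate 2 its log2 fold change was -3.23, and without DAP20 replicate 2 it was -12.30. By limma-voom the FDR was 0.082 for Lus10025231.g.BGIv1.0 and 0.26 for Lus10009867.g.BGIv1.0, and that of Lus10009867.g.BGIv1.0 was 0.0558 without DAP20 replicate 1.

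From DAP20 to DAP30, 71 of the genes passed the filter on these stages alone, against 91 and 90 in the other pairs. No count at either stage was found for 6 genes. Of the 103, 21 (20.4%) fell, 8 (7.77%) rose and 74 were not called, while of all genes tested 32.5% were called, 17.4% lower and 15.1% higher. The median log2 fold change was -0.58, or -0.31 with genes at their bound, against -0.04 over all genes, and it was 0 without DAP20 replicate 1. Fewer genes were called in this pair of stages when a DAP10 or a DAP30 library was left out, over all genes as well as in the set. Each such fit also has less replication, and the part of particular libraries was not tested apart from that. Without DAP30 replicate 1 the calls over all genes were 8.79% lower and 6.84% higher, and without DAP30 replicate 2 they were 9.11% and 7.80%. The median log2 fold change of the members was -0.55 without DAP30 replicate 1, -0.65 without DAP30 replicate 2 and -0.60 without DAP20 replicate 2. By limma-voom 12 fell and 5 rose, against 13.5% and 15.4% of all genes. With only these stages in the fit 15 fell and 3 rose of the 71 members. Of all genes in that fit 13.4% fell and 10.6% rose.

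Lus10003755.g.BGIv1.0 had 1387 and 1572 CPM at DAP10, 0.981 and 14.2 at DAP5, 10.2 and 13.3 at DAP20, and no count at DAP30. The last step was a fall of at least 138-fold (edgeR FDR = 0.0136), which was not called without DAP30 replicate 1 (0.0665) or without DAP30 replicate 2 (0.0563). Lus10039078.g.BGIv1.0, described above, fell at least 63.0-fold in this step (edgeR FDR = 0.0187), and was not called by limma-voom (0.0513), against a 2-fold change (0.0562), without DAP30 replicate 1 (0.081) or without DAP30 replicate 2 (0.0662). By its log2 bound of -5.98, Lus10039078.g.BGIv1.0 does not outrank Lus10027407.g.BGIv1.0, at -6.56 (edgeR FDR = 0.00764), or Lus10014885.g.BGIv1.0, at -6.32 (edgeR FDR = 0.0442). Among the genes that rose, Lus10005093.g.BGIv1.0 had 3.82 and 0.359 CPM at DAP20 and 22.7 and 9.53 at DAP30, higher by 3.02 ± 0.85 on the log2 scale (SE; FDR = 0.0317 by edgeR). Its levels at DAP10 were 593 and 625 CPM, and at DAP5 they were 6.23 and 14.3. Lus10034893.g.BGIv1.0 rose from 1.66 and 0.872 to 8.53 and 3.20 CPM, higher by 2.29 ± 0.55 on the log2 scale (SE; FDR = 0.0183 by edgeR). Its levels were 61.2 and 52.0 CPM at DAP10 and 0.226 and 0.722 at DAP5. Neither was called in a test against a 2-fold change, where no member was called higher, or without DAP30 replicate 1, with FDR of 0.119 and 0.158 for Lus10005093.g.BGIv1.0 and 0.102 and 0.116 for Lus10034893.g.BGIv1.0. Lus10005093.g.BGIv1.0 was also not called with only these stages in the fit (0.0764), or without DAP10 replicate 1 (0.0592), DAP10 replicate 2 (0.0583) or DAP30 replicate 2 (0.0578). Lus10034893.g.BGIv1.0 was also not called without DAP20 replicate 2 (0.0528). Without DAP20 replicate 1 the log2 fold change of Lus10005093.g.BGIv1.0 was 5.55. Without DAP30 replicate 1 that of Lus10034893.g.BGIv1.0 was 1.46.

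The IDs end in a serial number, and 4 of the 103 genes formed 2 pairs of consecutive numbers. Of all annotated IDs, 188 of 38306 (0.491%) had a member 1 number away, against 3.88% of the members. Whether consecutive numbers are neighbours in the genome is not stated in the sources used here, and shared reads between near-identical copies could not be recognised. Lus10030409.g.BGIv1.0 had 63.0 and 42.9 CPM at DAP10, 0.0377 and 0.361 at DAP5, and 3.64 in DAP20 replicate 1, with no count in the other 3 libraries. Lus10030410.g.BGIv1.0 had 39.4 and 34.4 CPM at DAP10 and 0.315 in DAP20 replicate 1, with no count elsewhere. Both thus had their only signal after DAP10 in the same library.

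In the other pair 1 gene was called between DAP5 and DAP20 and 1 was not, and the difference between them was not tested. Lus10016286.g.BGIv1.0 had 71.3 and 46.6 CPM at DAP10, 0.189 and 0.289 at DAP5, 7.64 and 3.13 at DAP20, and 1.89 and 1.21 at DAP30. It rose from DAP5 to DAP20 by 5.22 ± 0.57 on the log2 scale (SE; FDR = 0.000205 by edgeR). Lus10016285.g.BGIv1.0 had 31.9 and 26.4 CPM at DAP10 and at most 1.30 in any other library. Its log2 fold change from DAP5 to DAP20 was -0.30 ± 0.66 (SE, edgeR FDR = 0.716).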

How the data were processed

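The authors deposited raw, unscaled read counts by gene for 8 RNA-seq libraries of flax seed in 1 table, which also holds a length for each gene. Per the labels' protocols, TRIzol was used for extraction and a NEBNext Ultra kit for the libraries. How the length was defined, the aligner, counter, genome build and use of strand: not given in the sources used here. Columns were matched to samples by the library code in the labels. Of 40518 rows, 2212 are gene models added by the authors and were not eligible as members.

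CPM was computed on library totals. Counts were tested in R 4.3.3 with edgeR 4.0.16 (filterByExpr with minimum count 10 and minimum total 15, TMM, quasi-likelihood F-test with stage as the only term, Benjamini-Hochberg adjustment over 28749 genes). Each standard error was taken from the F statistic as the size of the fold change (log2) over its root. Alternatives used limma 3.58.1 (voom), DESeq2 1.42.0, other scalings, no filter, a 2-fold null, a replicate term and each library left out.

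The members, lists and tests were chosen with earlier results of these data known. Named genes follow a fixed rule: the 2 highest by DAP10 level, by level per length, by ratio, by DAP10 gap and by length, those at the 4-fold limit, consecutive IDs, and the 2 largest rises and falls, by fitted fold change, of each tested pair with an FDR below 0.05 and stages that do not overlap. Exceptions are marked in the text. The gene lists by name were not used, as the table holds no names.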

Additional observations from a re-analysis of the deposited data

Results flagged for a closer look

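Among the 2212 gene models added by the authors, which were not eligible as members, 1 met the same limits. Linumusitatissimum_newGene_3787, with a length of 1254 bases, had a mean of 903 ± 45.2 CPM at DAP10 (SD, n = 2), from 935 and 871 in the 2 libraries. Its levels were 70.2 and 22.5 CPM at DAP5, 130 and 185 at DAP20, and 116 and 132 at DAP30, so the lower DAP10 library was 4.71 times the highest other. It drew attention as a signal in rows outside the main measurement. Unlike most members at DAP5, it was higher in replicate 1 than in replicate 2 there.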

How the results depend on the processing

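The number of members was 40 with an 8-fold limit, and 165 with the DAP10 mean set against the highest mean of another stage. It stayed within 1.5 times of 103 with the other limits and with TMM scaling, under which 119 genes passed, 92 of them among the 103. With a library left out it ran from 103 to 155, the latter without DAP5 replicate 2. From DAP5 to DAP20, with only these stages in the fit 30 of 91 members were called (10 rose, 20 fell). Of all genes in that fit 23.7% rose and 29.3% fell. Tested against a 2-fold change 33 were called (13 rose, 20 fell), with 14.2% and 20.4% of all genes. Under library totals 14 rose and 53 fell, with 14.4% and 49.95% of all genes. From DAP20 to DAP30, limma-voom called 17 (5 rose, 12 fell), with 15.4% and 13.5% of all genes. The fit of these stages alone called 18 of 71 (3 rose, 15 fell), with 10.6% and 13.4% of all genes. The test against a 2-fold change called 8 (0 rose, 8 fell), with 1.84% and 5.93% of all genes. Library totals gave 5 that rose, with 11.9% of all genes. The test against a 2-fold change calls fewer by construction, and for the other settings the cause was not tested. All counts from DAP5 to DAP30 stayed within 1.5 times. When single libraries were dropped, the lone library of that stage was assumed to vary like those of the other stages. Members called then ran from 46 to 57 for DAP5 to DAP20 (14 to 24 rose, 25 to 43 fell), from 50 to 76 for DAP5 to DAP30 (13 to 22 rose, 37 to 60 fell) and from 6 to 37 for DAP20 to DAP30 (1 to 9 rose, 5 to 32 fell). The shares of all genes called also changed between these fits, so the ranges are not a property of the members alone. No named gene reversed. Of the 12 named calls, 4 held under all 16 alternatives. The stages share replicate numbers only as names, since no label pairs libraries, and the differences between replicates correlated by 0.00118 to 0.116 across genes between stages. With a replicate block 52 members were called for DAP5 to DAP20 (21 rose, 31 fell), with 28.04% and 31.26% of all genes. For DAP5 to DAP30 that fit called 66 (16 rose, 50 fell), with 30.7% and 38.5% of all genes. For DAP20 to DAP30 it called 24 (7 rose, 17 fell), with 13.9% and 16.2% of all genes. Added after the data were seen, members within 5 ID numbers of another numbered 8 (7.77%, against 2.30% of all annotated IDs), and the share of annotated counts at DAP10 was 4.17%. Depth limits statements on genes without a count to the bounds given.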
